A study of Vitis vinifera and Vitis quinquangularis with 24 samples.

Results

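Berry skin of the wild Chinese grape Vitis quinquangularis accession Danfeng-2 was compared with skin of the wine grape Vitis vinifera cv. Cabernet Sauvignon at E-L 35. The members were chosen by their labels alone, as the 3 Danfeng-2 and the 3 Cabernet Sauvignon libraries of that stage, 6 of the 24 libraries in the series. E-L 35 is the point of the Eichhorn-Lorenz scale at which berries begin to colour. The series also holds E-L 33, E-L 34 and E-L 38 in both cultivars, with 3 libraries in each group, and its title names resveratrol accumulation as the interest. All libraries profile messenger RNA of the skin, and no treatment is stated. In such bulk samples, fewer cells of a type and less RNA per cell cannot be told apart. Whether replicates were taken from separate vines, bunches or pools is not stated, so p-values measure the spread between libraries, which may be technical.

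Veraison is the turn of the grape berry from growth of hard green fruit to ripening. The fruit softens, sugar and water enter it, malic acid declines, and in coloured cultivars the skin accumulates anthocyanins. The skin is also where stilbenes such as resveratrol, which stilbene synthases make from a phenylpropanoid precursor shared with the flavonoid pathway, are formed in ripening berries. The files give each gene model by identifier and position, and 0 of the 27711 identifiers matched the RefSeq table of names. Models are therefore given by identifier or by stretch of chromosome, in the coordinates of the files, with no gene name or role. For the same reason the tissue could not be checked against skin markers.

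Total counts in the 6 libraries ran from 13828993 to 18804492, and each library had counts above 0 in 19079 to 19376 models. Danfeng-2 replicate 1 stood apart from its partners. Its log2 levels correlated with theirs at 0.951 or less across models, against 0.995 to 0.996 in the 4 remaining pairs. The chi-square per degree of freedom against counting error was 101 and 100.1 in its pairs. In the remaining pairs it was 1.80 to 2.56, little above counting error. Of 8162 models that averaged 20 CPM or more (counts scaled to library size) in Danfeng-2, 11.7% were at least 2-fold away from both partners in replicate 1, 422 above and 535 below. In Danfeng-2 replicates 2 and 3 this held for 0 and 1 models, and in the Cabernet Sauvignon libraries for at most 2 of 7981. The main counts and most of the named models are therefore also given without that library.

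Skins of Danfeng-2 and Cabernet Sauvignon differed in 6321 of 18375 tested models (34.4%) at E-L 35. Calls required a change of at least 2-fold and, in edgeR's quasi-likelihood test, a p below 0.05 after Benjamini-Hochberg adjustment. In Danfeng-2, 3248 models (17.7%) were higher and 3073 (16.7%) were lower. Without Danfeng-2 replicate 1 the order of the directions turned, with 3138 of 18677 models higher (16.8%) and 3294 lower (17.6%). Of the models called with all 6 libraries, 2813 higher and 2837 lower ones were called the same way without it, and none was called in the opposite direction. The median log2 fold change over all tested models was 0.02.

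Many of the differences were large. At 8-fold or more, 985 models were higher and 1118 lower in Danfeng-2, and at 32-fold or more 423 and 480. For 252 of the higher models Cabernet Sauvignon had 0 counts in its 3 libraries, and for 285 of the lower ones Danfeng-2 had 0. No overlap between the groups was seen for 5896 models on the higher and 6332 on the lower side, 66.5% of those tested, against 34.4% called. Both species were counted on the same models at the same coordinates. No label or file names the reference genome. For models lower in Danfeng-2, a lower level and reads that failed to align therefore cannot be told apart. Of the 3073 lower models, 1641 (53.4%) were called lower at E-L 38 too, and 213 were called higher in Danfeng-2 there. Loss of reads was not tested.

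**Figure D1:**
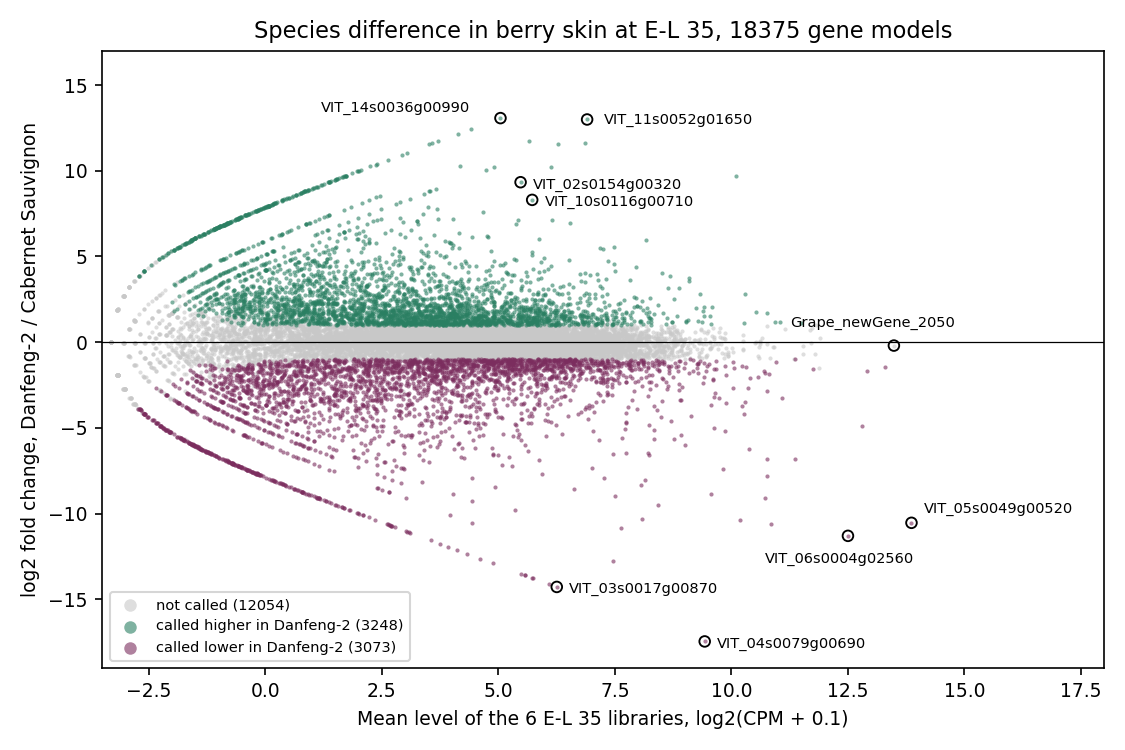
Each point is 1 of 18375 tested gene models, with the mean level of the 6 E-L 35 libraries as log2(CPM + 0.1) on the horizontal axis and the log2 fold change of Danfeng-2 over Cabernet Sauvignon on the vertical axis. Called models are coloured (3248 higher, 3073 lower), the named models are circled, and the curved edges hold models with 0 counts in 1 group, whose fitted fold depends on the fitting method.

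The share of each library held by the called models differed between the species. The 3073 models called lower held 32.5%, 32.6% and 32.2% of the CPM in the Cabernet Sauvignon libraries and 9.28%, 7.97% and 7.94% in the Danfeng-2 libraries. The 3248 models called higher held 3.95%, 3.98% and 3.95% in Cabernet Sauvignon and from 15.9% to 18.4% in Danfeng-2, where replicate 1 was the highest. These shares describe models chosen by the same contrast, and the lists that follow were chosen by the level in 1 species, which favours a lower level in the other. Of the 100 models with the highest mean CPM in Cabernet Sauvignon, 56 were lower in Danfeng-2, 3 were higher and 41 were not called. Of the 100 highest in Danfeng-2, 28 were higher there, 8 were lower and 64 were not called, and 51 models stood in both lists. When all tested models were divided into 5 classes of equal size by mean CPM, the highest class, above 62.1 CPM, had 14.1% lower and 8.76% higher. In the lowest class, at 2.18 CPM or less, the shares were 26.6% and 27.4%.

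The most abundant model of the Cabernet Sauvignon libraries was VIT_05s0049g00520 (chromosome 5, from 7580634 to 7788928), with 29843, 31302 and 28434 CPM in Cabernet Sauvignon replicates 1 to 3. Danfeng-2 replicates 1 to 3 had 42.6, 9.24 and 8.47 CPM. It made up 2.60% to 2.83% of each Cabernet Sauvignon library, and all Danfeng-2 libraries lay below all Cabernet Sauvignon libraries. The ratio of the means was 1485, and the log2 fold change was -10.54 (SE 0.80, adjusted p = 1.3e-09), or -11.72 without Danfeng-2 replicate 1. By E-L 38 Danfeng-2 had 13507 ± 703 CPM (SD, n = 3) and Cabernet Sauvignon 21513 ± 612 CPM (adjusted p = 0.29). Its span overlaps 18 other models, 13 of them on its strand, so the assignment of reads within the span is uncertain. The most abundant model of the Danfeng-2 libraries, the newly predicted Grape_newGene_2050, had 10661, 10651 and 10797 CPM there. Cabernet Sauvignon had 12485, 11772 and 12645 CPM of it, and it was not called (log2 fold change -0.20, SE 0.14, adjusted p = 0.21). Both models were named after their values were seen.

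Among called models with separate libraries and 20 CPM or more in one species, the highest fold changes belonged to VIT_14s0036g00990 and VIT_11s0052g01650. VIT_14s0036g00990 (chromosome 14, from 11481165 to 11482783) had 51.1, 69.5 and 76.8 CPM in Danfeng-2 and no count in Cabernet Sauvignon. It was at least 1012-fold higher in Danfeng-2, taking 3 counts summed over Cabernet Sauvignon as the limit of detection (fitted log2 fold change 13.07, SE 0.42, adjusted p = 8.5e-12). Its Danfeng-2 means over the 4 stages ran from 43.2 to 65.8 CPM, and the highest Cabernet Sauvignon mean was 0.0445 CPM, at E-L 34. VIT_11s0052g01650 (chromosome 11, from 19389830 to 19390655) had 125, 304 and 289 CPM in Danfeng-2, where replicate 1 was the lowest, and a single count in Cabernet Sauvignon. The ratio of summed counts was 11091, with an exact 95% interval for counting error from 1990.2 to 438097 (fitted log2 fold change 12.99, SE 1.11, adjusted p = 2.0e-08, or 14.94 without Cabernet Sauvignon replicate 2, which held that count). Danfeng-2 had had 268 ± 7.36 CPM of it at E-L 34, and kept 9.41 ± 0.502 CPM by E-L 38.

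At the lower end stood VIT_04s0079g00690 and VIT_03s0017g00870. VIT_04s0079g00690 (chromosome 4, from 11505001 to 11507285) had 1329, 1439.6 and 1365 CPM in Cabernet Sauvignon. Danfeng-2 gave 0 counts, at least 21876-fold lower (fitted log2 fold change -17.46, SE 0.87, adjusted p = 1.7e-11). Cabernet Sauvignon started from 0.739 ± 0.876 CPM at E-L 33 and 0.0302 ± 0.0262 CPM at the next stage and reached 2929 ± 146 CPM by E-L 38, while no Danfeng-2 group had a mean above 0.473 CPM. VIT_03s0017g00870 (chromosome 3, from 16023963 to 16025246) followed the same course, with 158, 153 and 146 CPM in Cabernet Sauvignon against no count in Danfeng-2. Danfeng-2 was at least 2416-fold lower (fitted log2 fold change -14.28, SE 0.34, adjusted p = 2.7e-14). Its Cabernet Sauvignon means before that were 1.38 ± 0.145 and 1.39 ± 0.232 CPM. Leaving out Danfeng-2 replicate 1 moved these 4 log2 fold changes to 13.23, 13.30, -17.46 and -14.28.

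**Figure D2:**
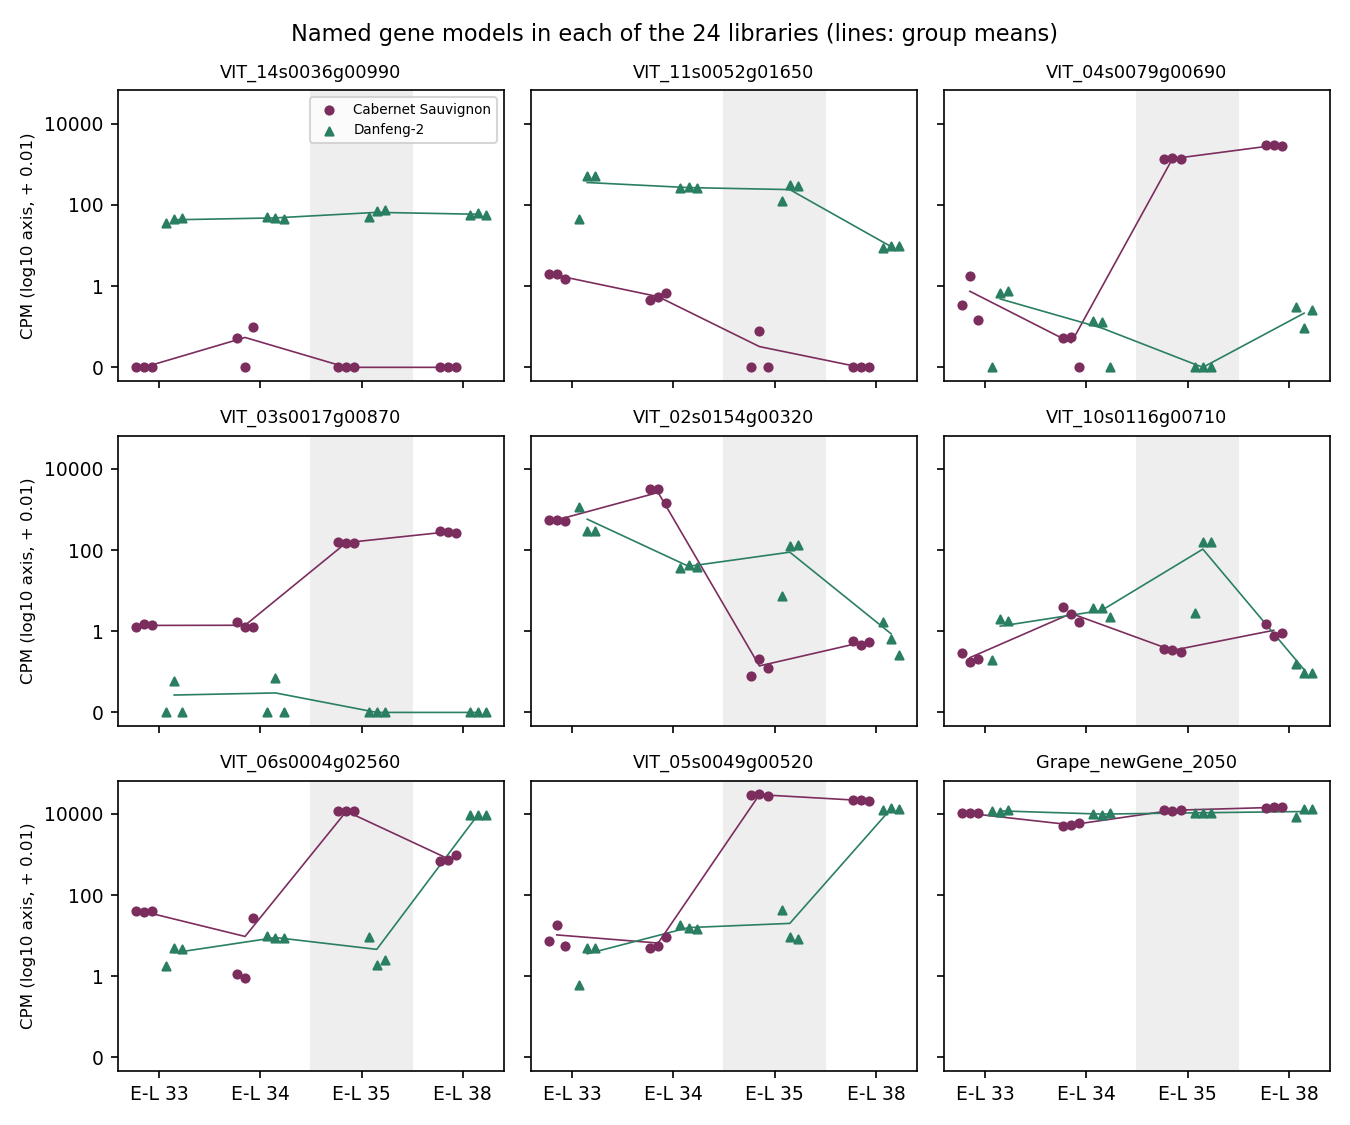
CPM on a log10 axis in each of the 24 libraries for the 9 named gene models, by berry stage, with circles (Cabernet Sauvignon), triangles (Danfeng-2), lines through the group means and E-L 35 shaded. VIT_05s0049g00520 averaged 29859.9 CPM in Cabernet Sauvignon against 20.1 in Danfeng-2 within the shaded stage, and 21513 against 13507 CPM at the last.

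Models that differed at E-L 35 in another way than at the remaining stages were found by testing the difference at E-L 35 minus the mean difference over the 3 remaining stages. This test called 3548 models (19.3%), 1879 higher (10.2%) and 1669 lower (9.08%), and without Danfeng-2 replicate 1 it called 1948 higher and 2014 lower. For VIT_14s0036g00990, VIT_11s0052g01650 and VIT_03s0017g00870, each with a group at 0 counts at another stage, it gave an adjusted p of 1.0. The standard errors were 1997.92, 1390.27 and 5991.41, so the test could not decide for them. No call there does not mean an equal difference at all stages, and the list can miss such models. VIT_02s0154g00320 (chromosome 2, from 5141572 to 5142327) had 129 and 129.7 CPM in Danfeng-2 replicates 2 and 3, 7.38 in replicate 1, and 0.0707, 0.202 and 0.117 CPM in Cabernet Sauvignon. One stage earlier Cabernet Sauvignon had 2618 ± 997 CPM of it, when Danfeng-2 had 39.8 ± 3.26 CPM. The species difference at E-L 35 stood 11.07 above the mean of the other stages on the log2 scale (SE 1.34, adjusted p = 2.2e-06), or 11.61 without Danfeng-2 replicate 1. VIT_10s0116g00710 (chromosome 10, from 314963 to 317391) was high in 2 libraries of the series, Danfeng-2 E-L 35 replicates 2 and 3, with 157 and 156 CPM. Danfeng-2 replicate 1 had 2.82 CPM, and no group outside Danfeng-2 E-L 35 had a mean above 3.24 CPM (8.42 above the other stages, SE 1.61, adjusted p = 3.3e-04, or 8.98 without Danfeng-2 replicate 1). It overlaps 1 model on the opposite strand, and the labels do not say whether counting used the strand.

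In the lower direction the same test was led by VIT_04s0079g00690 (-13.09, SE 1.87, adjusted p = 2.5e-05), whose difference was also -13.72 at E-L 38, but -0.64 at E-L 33 and 1.28 one stage later. VIT_06s0004g02560 (chromosome 6, from 3075721 to 3076606) came next. It had 11695, 11623 and 11500.1 CPM in Cabernet Sauvignon against 9.37, 1.92 and 2.51 CPM in Danfeng-2, a ratio of 2522. Without Danfeng-2 replicate 1 the Danfeng-2 mean fell from 4.60 to 2.22 CPM. By E-L 38 the order was the opposite, with 9643 ± 55.6 CPM in Danfeng-2 against 797 ± 145 CPM in Cabernet Sauvignon (log2 fold change 3.60, adjusted p = 6.4e-04). The difference at E-L 35 minus its mean over the other stages was -11.35 (log2, SE 1.15, adjusted p = 2.4e-07). It was -12.40 without Danfeng-2 replicate 1, and -13.53 without that library, Danfeng-2 E-L 33 replicate 1 and Cabernet Sauvignon E-L 34 replicate 3.

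Between 42.4% and 53.4% of the calls at E-L 35 recurred in the same direction at each other stage, which rests on other libraries. At E-L 33, where 28.2% of models were called (13.5% higher, 14.6% lower), 1459 of the 3248 higher models (44.9%) and 1564 of the 3073 lower ones (50.9%) were called the same way. These are 58.8% and 58.1% of the lists at E-L 33. At E-L 34 (27.4% called) the shared models were 42.4% of the higher and 49.7% of the lower list at E-L 35. For E-L 38 (31.6% called, 15.3% higher and 16.3% lower) they were 47.0% and 53.4%, while 200 of the higher models were called lower and 213 of the lower models higher. Calls made at no other stage numbered 698 higher and 537 lower, though a missed call elsewhere does not show that the stages differ.

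Danfeng-2 skin at E-L 35 lay less far along the change from green to ripe berries than Cabernet Sauvignon skin of the same stage. Position was read from 3200 models that rose in both cultivars or fell in both from E-L 33 to E-L 38. Their calls compare E-L 33 with E-L 38 libraries, though the fit takes its filter, scaling and dispersion from all 24. Between those stages 41.0% of tested models were called in Cabernet Sauvignon (17.8% rose, 23.2% fell) and 30.4% in Danfeng-2 (11.5% rose, 18.8% fell). On a scale that runs from 0 at the E-L 33 mean to 100 at the E-L 38 mean of the same cultivar, the Cabernet Sauvignon libraries lay at 87.6%, 87.4% and 87.7%. Danfeng-2 replicates 1 to 3 lay at 47.4%, 37.6% and 37.5%, with no overlap. The means were 87.6% ± 0.1 and 40.8% ± 5.7 (SD, n = 3), a difference of -46.7 percentage points (two-sided exact permutation p = 0.10, the smallest that 3 against 3 allows). Danfeng-2 E-L 33 replicate 1, at -13.6% against 6.8% in its partners, helps to set the Danfeng-2 scale. That library also enters the Danfeng-2 calls between E-L 33 and E-L 38. Its effect on the share called was not tested, so the lower share need not mean a weaker change in Danfeng-2. Without Danfeng-2 E-L 35 replicate 1 the Danfeng-2 mean was 37.6%, or 37.0% when the models were also chosen without it, and it was 32.6% when that library, Danfeng-2 E-L 35 replicate 1 and Cabernet Sauvignon E-L 34 replicate 3 (20.8% against 16.2% and 16.1%) were left out.

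**Figure D3:**
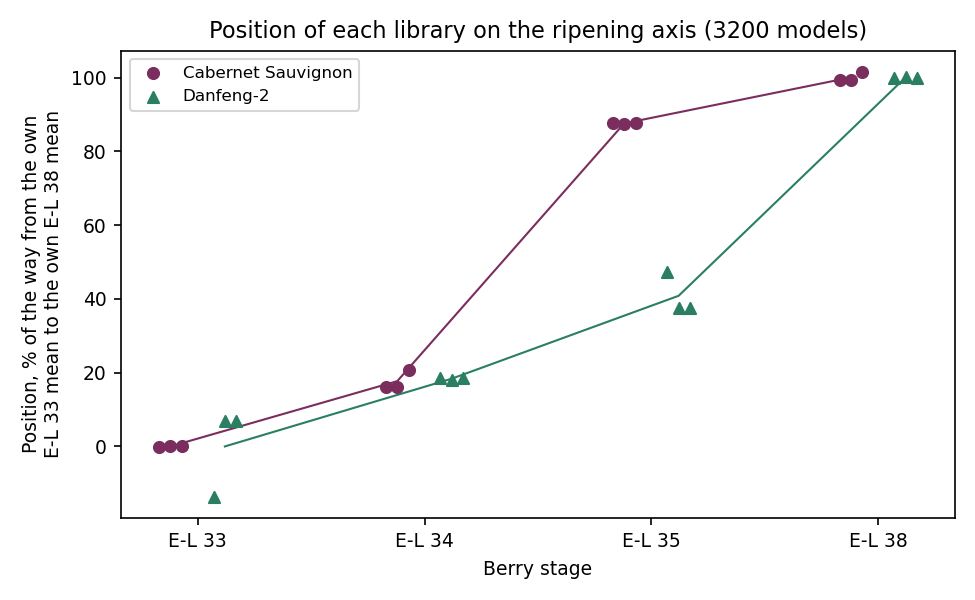
Position of each of the 24 libraries along the way from E-L 33 to E-L 38, in percent of the way between the own cultivar's means, with lines through the group means. At E-L 34 the 2 cultivars lay at 17.7% and 18.4%, and at E-L 35 at 87.6% and 40.8%.

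The 3200 models of the axis were also counted one by one. These are the same models and libraries, so the counts restate the position and are not separate support for it. Of 1087 models that rose from E-L 33 to E-L 38 in both cultivars, 585 (53.8%) had lower levels in Danfeng-2 at E-L 35 and 69 (6.35%) higher, against 16.7% and 17.7% over all tested models, and their median log2 fold change was -1.19. Of 2113 that fell in both, 938 (44.4%) were higher and 270 (12.8%) lower, with a median of 0.96. At E-L 34, where 12.8% of all models were higher and 14.6% lower in Danfeng-2, the models that rose in both split into 258 higher and 230 lower. Those that fell in both then had 346 higher and 586 lower. Without Danfeng-2 replicate 1, 643 of the rising models were lower and 918 of the falling ones higher at E-L 35.

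Of these 585 rising models with lower levels in Danfeng-2, 294 were not called between the species at E-L 38, 209 were still lower and 82 were higher. Over all tested models, 16.3% were lower and 15.3% higher in Danfeng-2 at E-L 38. The E-L 38 libraries had a part in defining this class. Of 2015 models that rose in Cabernet Sauvignon with no call in Danfeng-2, 503 (25.0%) were lower at E-L 35 and 179 (8.88%) higher. The shares over all tested models at E-L 35 were 16.7% and 17.7%. Of these 503, 390 were lower at E-L 38 too, which the definition of the class favours. Models that were not called over ripening in either cultivar, 8821 in number, had 10.6% higher and 9.32% lower, against 17.7% and 16.7% of all. They still made up 28.8% of all higher and 26.7% of all lower calls. Among the 166 models with a rise in Cabernet Sauvignon and a fall in Danfeng-2, 64 were lower and 43 higher at E-L 35, and among the 200 with the reverse course 51 were lower and 50 higher.

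**Figure D4:**
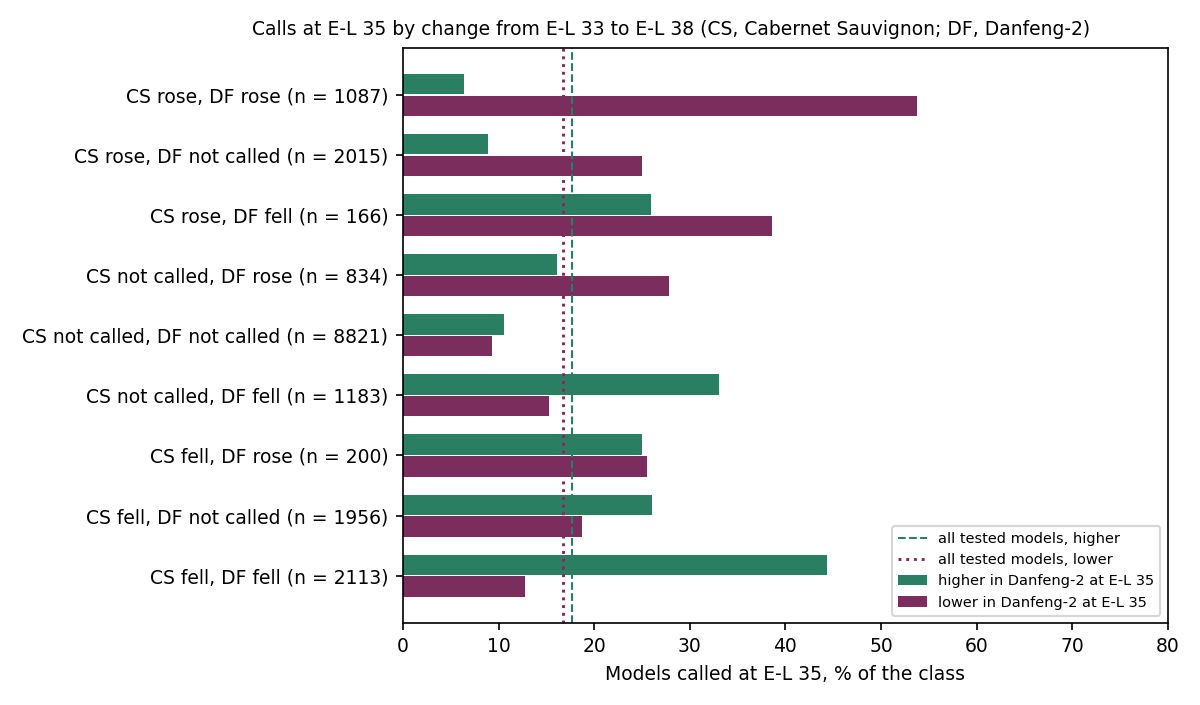
Share of models called higher (upper bars) and lower (lower bars) in Danfeng-2 at E-L 35, in percent of each of 9 classes defined by calls between E-L 33 and E-L 38 in each cultivar, with the shares of all tested models as vertical lines. The class that rose in both cultivars had 53.8% lower, and the class that fell in both had 44.4% higher.

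Some neighbouring models differed in the same direction. Stretches were taken where at least 8 of 10 consecutive tested models were called one way at E-L 35, against 17.7% higher and 16.7% lower over all models, which gave 7 higher stretches of 84 models and 9 lower stretches of 106 models. Without Danfeng-2 replicate 1 there were 5 and 7. The higher stretches on chromosomes 4, 7 and 19 then kept 7 models each that were called higher, fewer than the 8 required. Lower stretches on chromosomes 1, 8 and 16 likewise kept 7 models each that were called lower. All stretches were chosen by the calls at E-L 35, so their values at E-L 35 are a description, and values at other stages rest on other libraries. The stretch with the most models was on chromosome 18, from 4966021 to 5244746, where 13 of 17 models were higher in Danfeng-2 and 1 was lower. Its summed level was 692, 659 and 622 CPM across Danfeng-2 replicates 1 to 3, against 159, 161 and 159 CPM in Cabernet Sauvignon, and 1 model, called higher, held 50.5% of it. One stage earlier the sums were 601 ± 42.8 CPM in Danfeng-2 against 405 ± 43.5 CPM in Cabernet Sauvignon, where 4 models were called higher and 5 lower. The same models gave 414 ± 84.0 and 368 ± 15.5 CPM at E-L 33.

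A second stretch of chromosome 18, from 25251228 to 25672861, had 10 of 14 models higher and 1 lower in Danfeng-2. Its summed level overlapped between the groups, at 509.8, 434 and 462 CPM in Danfeng-2 and 459.9, 465 and 475 in Cabernet Sauvignon. A model that was not called held 63.5% of the sum. Between 19868025 and 20259861 of chromosome 16, 9 of 13 were higher in Danfeng-2 and 3 lower, and the sum was slightly lower in Danfeng-2 (85.2 ± 2.49 against 90.7 ± 2.0 CPM). All 13 of these models overlap another, so reads may be divided among them. Chromosome 12 held 8 of 10 higher models between 8112969 and 8296820, with 111, 111 and 112 CPM in Danfeng-2 against 41.9, 38.6 and 37.6 CPM in Cabernet Sauvignon. At E-L 33 that stretch stood at 154 ± 6.71 and 155 ± 1.94 CPM in the 2 cultivars.

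The lower stretches included one of chromosome 6, from 15634651 to 16390970, with 10 of 14 models lower and 1 higher in Danfeng-2. Its sum was 224, 150.1 and 149.6 CPM in Danfeng-2 against 493, 509.6 and 499 CPM in Cabernet Sauvignon, and Danfeng-2 was the lower by E-L 38 as well (559.5 ± 4.12 against 1198 ± 107 CPM). A model that was not called held 51.7% of that sum at E-L 35. Between 9840992 and 11103204 of chromosome 4, 10 of 14 were lower and 2 higher, with sums of 364, 262 and 259 against 529.7, 528 and 532 CPM. On chromosome 5 from 1912908 to 2194294, 9 of 13 were lower and none was higher. Each of the other stages also had 9 of 13 lower, and the sum in Danfeng-2 stayed between 88.2 and 96.4 CPM over the 4 stages. Cabernet Sauvignon ran from 138 ± 0.564 CPM at the first stage to 242 ± 13.4 CPM at the last.

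The chromosome 16 stretch from 16346418 to 16684265 changed direction between stages. At E-L 35, 10 of its 14 models were lower in Danfeng-2, with sums of 181, 563 and 584 CPM against 1029, 1009.6 and 1014 CPM in Cabernet Sauvignon. Replicate 1 was the lowest Danfeng-2 library, and without it 7 models were lower and the Danfeng-2 mean was 573 CPM in place of 443. At E-L 34 all 14 models were higher in Danfeng-2, at 182 ± 1.59 against 8.49 ± 7.95 CPM. By E-L 38, 10 were lower and 1 was higher, at 129 ± 2.33 against 382 ± 48.3 CPM. As 11 of the 14 share positions with a neighbour, they are not 14 independent measurements.

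Of the remaining stretches, those on chromosomes 7 and 4 (from 15509224 and from 22840656) had sums 2.16 and 2.71 times as high in Danfeng-2 at E-L 35, with 29.9% of the chromosome 7 sum in 1 model that was not called. On chromosome 19 (from 5561574) the libraries overlapped through Danfeng-2 replicate 1, at 298 CPM, while its partners had 396 and 398 against 329, 334 and 342 CPM in Cabernet Sauvignon. A model that was not called held 60.7% of this chromosome 19 sum. The other 5 lower stretches lay on chromosomes 1, 8, 10, 13 and 19, with ratios of Danfeng-2 to Cabernet Sauvignon from 0.00521 on chromosome 10 to 0.606 on chromosome 1, where a model that was not called held 72.2% of the sum, and with no overlap between libraries. The chromosome 10 stretch, from 5527663 to 5848332, had 10.7, 14.7 and 10.4 CPM in Cabernet Sauvignon, and counts in 1 of the 3 Danfeng-2 libraries, 0.186 CPM in replicate 2.

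**Figure D5:**
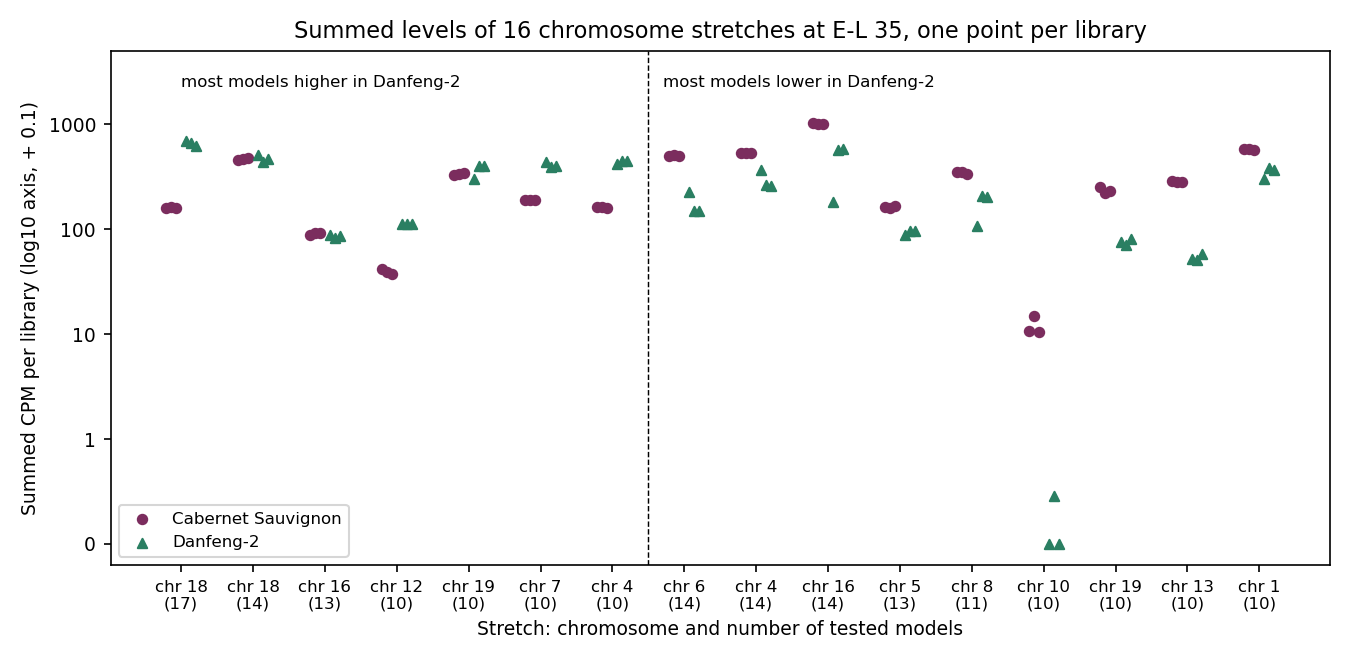
Summed CPM, on a log10 axis, of the 16 chromosome stretches in each E-L 35 library, with circles for Cabernet Sauvignon and triangles for Danfeng-2 (replicates 1 to 3 from left to right). The first chromosome 18 stretch stood at 622 to 692 CPM in Danfeng-2 against 159 to 161 CPM in Cabernet Sauvignon, and Danfeng-2 replicate 1 was the lowest point, at 181 CPM, in the lower chromosome 16 stretch.

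Newly predicted models, which have no VIT identifier, were described apart from the rest. Of 553 tested, 167 were higher and 126 lower in Danfeng-2, 53.0% in all, against 33.8% of the 17822 models with VIT identifiers. Their median level was 1.41 CPM, against 16.8 CPM. Over all models the share called was 54.0% in the lowest class of level and 22.9% in the highest. In the lowest of the 5 classes of mean CPM, 60.2% of 339 newly predicted models were called, against 54.0% of all models there. In the next class the shares were 50.8% of 120 and 44.0%, and in the highest 14.3% of 14 and 22.9%. By chromosome the share called ran from 31.0% on chromosome 7 to 38.4% on chromosome 16, where 20.9% of 683 models were lower. In models with no assigned chromosome it was 41.3% of 1381.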

How the data were processed

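RNA was sequenced from berry skin in 24 libraries, with 1 deposited table per library. Per the submitters' processing notes the aligner was TopHat2. Its version, the genome build, the annotation and the counting program with its strand setting are not given in the sources used. Per the file headers, each table holds a count, an FPKM value and a Normalized value for 27711 gene models. The counts deposited by the authors are whole numbers. In the E-L 35 libraries 62.5% to 63.7% of counts above 0 equal, within 0.02, the Normalized signal deposited by the authors divided by 1 factor per library, and 25.5% to 26.2% lie about 1 above it, so part of them may be rounded estimates. FPKM values, deposited by the authors in a way the file headers do not describe, served as an alternative.

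The counts were fitted by edgeR 4.0.16 under R 4.3.3, with filterByExpr (18375 models kept), TMM scaling and a quasi-likelihood fit of 8 groups to all 24 libraries. Standard errors are the size of the log2 fold change divided by the square root of F. For models at 0 counts in a group they leave out how far the fitted fold depends on the method. CPM values are scaled to TMM library sizes. The ripening axis averages log2(CPM + 0.5). Calls needed an adjusted p below 0.05 and a 2-fold change. Named models were the 2 highest and 2 lowest log2 fold changes of each test, among called models with separate libraries and a mean of 20 CPM or more in one species, that were also called without Danfeng-2 replicate 1. The comparison, rules and lists were chosen with earlier results of these data known. Gene lists by product name were not used, since 0 identifiers matched. Bounds use a floor of 3 counts over a group, and floors and intervals cover counting error only. The edgeR step was tested on simulated data. Alternatives used DESeq2 1.42.0 and limma 3.58.1, other scalings, filters, thresholds, a replicate block, and fits with libraries left out.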

Additional observations from a re-analysis of the deposited data

Results flagged for a closer look

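For 4 models the species difference at E-L 35 differed from its mean at the other stages, by edgeR's test of that difference. VIT_02s0154g00320 stood 11.07 above that mean on the log2 scale. VIT_10s0116g00710 stood 8.42 above it, with Danfeng-2 E-L 35 replicate 1 at 2.82 CPM and its partners at 157 and 156 CPM. VIT_04s0079g00690 gave -13.09 and VIT_06s0004g02560 gave -11.35. They are the named models at either end of a list of 3548 models called by that test, so they illustrate its extremes.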

How the results depend on the processing

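Counts of called models stayed within 1.5 times the main count at E-L 35 except when the fold minimum was changed. Without one, 11314 models were called (5725 higher, 5589 lower), and with a minimum of 4-fold 3408 (1663 higher, 1745 lower). For the difference against the other stages these counts were 7366 (3638 higher, 3728 lower) and 1494 (770 higher, 724 lower). Leaving out each E-L 35 library in turn gave 6196 to 6432 calls at E-L 35 (3138 to 3367 higher, 2976 to 3294 lower) and 3270 to 3962 against the other stages (1727 to 1948 higher, 1505 to 2014 lower). The stretches fell from 7 higher and 9 lower to 2 and 3 when models needed at least 5 CPM in at least 3 libraries, which leaves fewer models to test. On the ripening axis, without the 3 libraries that stood apart, the E-L 35 means were 32.6% in Danfeng-2 and 88.2% in Cabernet Sauvignon.

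Deviations of same-numbered libraries of the cultivars correlated at -0.01, 0.01 and 0.01, against -0.02 to 0.01 for other numbers. In Danfeng-2 these deviations mostly set replicate 1 apart, so they cannot decide whether the numbers pair libraries. The replicate block called 6289 models at E-L 35 and 3483 against the other stages. All 119 alternatives of the named models that gave a test kept direction and side of the threshold. Models named from the tests were extremes also called without Danfeng-2 replicate 1, so that alternative was passed by the choice itself. VIT_06s0004g02560 had no result from DESeq2, which left its p undefined. Fitted folds of models at 0 counts depended on the scale, and with limma on log2(FPKM + 1) VIT_14s0036g00990 went from 13.07 to 5.46 and VIT_04s0079g00690 at E-L 35 from -17.46 to -10.99. Upper quartile scaling moved the median log2 fold change of all models at E-L 35 from 0.02 to 0.10. DESeq2 left the adjusted p of 223 models undefined. Part of the counts may be rounded estimates, and 54.0% of the models in the lowest of 5 classes of mean CPM were called, where few counts lie behind a value.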
